A study of Nannochloropsis oceanica with 18 samples.

Results

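Lysine crotonylation (Kcr) was compared in Nannochloropsis oceanica IMET1, an oil-producing marine microalga, between cells kept for 1 day without nitrogen (N1) and nitrogen-replete cells (C0). The comparison rests on 4 Kcr libraries, 2 of N1 and 2 of C0, out of 18 chromatin immunoprecipitation sequencing (ChIP-seq) libraries, and it takes in all 3803 regions for which values were deposited. The other libraries hold H3K27ac and H3K36me2 in the same conditions, and all 3 marks after 2 days (N2). C0 cells grew in complete medium at 80 µmol photons m-2 s-1. N1 and N2 cells had been washed, moved to medium without nitrogen and kept at 50 µmol photons m-2 s-1, and these 3 differences from C0 (nitrogen, transfer, light) cannot be told apart. All cells are of the same strain. The antibody recognises crotonyl-lysine in general and not 1 position of 1 histone, and its catalogue number in the labels differs from that in the study's methods.

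Crotonylation is an acyl mark that is generally found with acetylation on active chromatin. Histone acyltransferases that also acetylate place it from crotonyl-CoA, a short-chain intermediate of fatty acid metabolism, histone deacetylases can remove it, and proteins with YEATS or double PHD finger domains bind it. Nannochloropsis turns towards storage lipid when nitrogen runs out, and the question was where the mark changed in the first day. No gene is paired with the regions in the sources used here. Regions are therefore named by chromosome, start and end as deposited, the methods name the species' reference genome without a version for ChIP-seq, and the labelled conditions could not be checked against marker genes.

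The level of the mark is given as a ratio, the coverage (pileup) over a region divided by the local background expected there, with 0.5 added to both. A ratio of 1 means no more coverage than background. Differences are on the log2 scale of this ratio, N1 minus C0. The median pileup in N1 was 35.5 and 35.6 in the 2 libraries, against 60.5 and 60.8 in C0, and the median background was 19.5 and 19.8 in N1, against 22.2 and 22.1 in C0. The smallest step of the pileup corresponded to 3.72 and 3.23 M fragments in N1 and to 1.95 and 2.17 M in C0, so depth differed with the condition and its part in the results was not tested. The 2 libraries of a pair were more alike than independent counts of that size (chi-square divided by its degrees of freedom 0.724 in N1 and 0.667 in C0). How a region's pileup was taken is not stated, so these values cannot show whether a pair is separate cultures or 1 sample measured again. Both library values are therefore printed in place of an SD. The limma fit and the permutation test below nevertheless took the N1 and C0 libraries as separate replicates. Their standard errors (SE) and p-values therefore cover only how far libraries of a group differ, this spread may be technical, and it may be smaller than that between cultures.

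The Kcr ratio was lower in most marked regions after 1 day without nitrogen, and the range of ratios between marked and unmarked regions was narrower. The methods name no spike-in (added reference chromatin). A change of level or spread over all regions therefore cannot be told apart from a difference in immunoprecipitation between conditions. The median ratio over all regions was 1.69 and 1.68 in the N1 libraries, against 2.52 and 2.55 in the C0 libraries. A ratio of at least 2 was found in 1254 and 1218 regions in N1, against 2474 and 2485 in C0, and a ratio of at least 4 in 5 and 6 regions in N1, against 86 and 95 in C0. The number of regions under 1 moved little, with 1068 and 1061 in N1 and 973 and 975 in C0. The SD of the log2 ratio over regions was 0.71 and 0.70 in N1, against 1.13 and 1.14 in C0. The N1 and C0 libraries did not overlap in any of these measures. For the median ratio, an exact two-sided permutation test over 2 against 2 libraries gave p = 0.333, which is the smallest p this design allows.

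**Figure D1:**
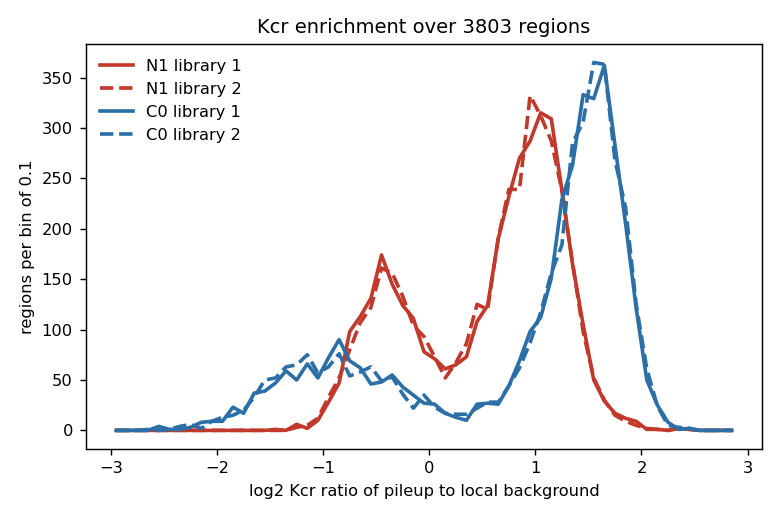
Number of regions per bin of 0.1 (vertical axis) at each log2 Kcr ratio of pileup to local background (horizontal axis), with 1 line per library, red for N1 and blue for C0. Both peaks of the N1 lines lie closer to 0 than those of the C0 lines, and the 2 libraries of each condition nearly coincide.

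In a limma-trend fit over all 3803 regions, with Benjamini-Hochberg adjustment and a threshold of 0.05, 624 regions were higher in N1 (16.4%), 2439 were lower (64.1%) and 740 were not called. The median difference was -0.43 and single differences lay between -1.96 and 2.76. Both N1 libraries lay above both C0 libraries in 819 regions (21.5%) and below them in 2604 (68.5%). The calls differed with the level in C0. Of the 624 higher regions, 568 had a mean ratio under 1 in C0 and 546 were still under 1 in N1. Of the 2439 lower regions, 2154 had a ratio of 2 to under 4 in C0 and 77 of 4 or more. In N1, 977 of the lower regions remained at 2 or more, 1341 were between 1 and 2 and 121 were under 1.

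**Figure D2:**
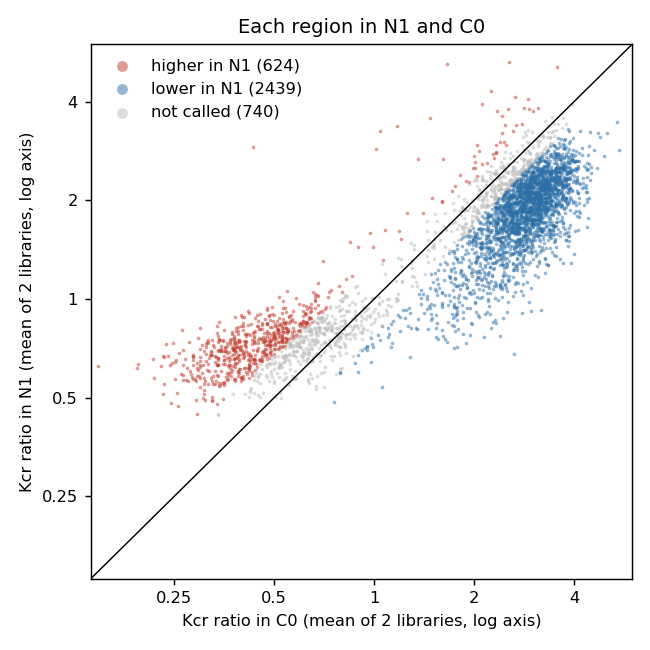
Mean Kcr ratio of each of the 3803 regions in N1 (vertical, log axis) against C0 (horizontal, log axis), coloured by the limma call, with the line of equal values. Most regions higher in N1 (624) lie at the lower left, under a ratio of 1, and most regions lower in N1 (2439) lie below the line at C0 ratios above 2.

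Sorted by their C0 level, the 979 regions under a ratio of 1 had 568 higher and 15 lower calls and a median difference of 0.50. The 328 regions at 1 to under 2 had 23 higher and 193 lower calls (median -0.39), and the 2419 at 2 to under 4 had 33 and 2154 (median -0.57). All 77 regions at 4 or more were lower, with a median difference of -0.83 and median ratios of 2.36 in N1 and 4.16 in C0. The C0 level was used both to sort the regions and in the difference. Sorted on C0 library 1, with the change taken against C0 library 2, the medians of these classes were 0.51, -0.38, -0.58 and -0.75. Sorted on library 2, with the change against library 1, they were 0.49, -0.41, -0.57 and -0.80. This removes only what differs between the 2 C0 libraries, which may be 1 sample measured again. When all libraries were scaled to equal medians and equal spreads, so that a change of spread can no longer appear, 32.9% of all regions were called higher and 12.8% lower. The regions at 2 to under 4 turned to 873 higher and 362 lower calls, those under 1 had 278 and 18, and those at 4 or more had 20 and 17.

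The order of the regions was partly kept. The mean log2 ratios in N1 and C0 correlated at r = 0.89 over regions (not independent replicates), against 0.97 between the N1 libraries and 0.98 between the C0 libraries. Among the 2409 regions with a ratio of at least 2 in both C0 libraries the correlation was 0.44. Of the 380 regions highest in C0, 143 (37.6%) were among the 380 highest in N1, and 27 were below the median of N1. Conversely, 45 of the 380 highest in N1 were below the median of C0.

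Gains that reached a clear mark were few. A ratio of at least 2 in both N1 libraries, without overlap with C0, was found in 49 of the 624 higher regions, on 23 chromosomes. Their median ratio was 2.96 in N1 and 2.25 in C0, and 30 of them already had a ratio of at least 2 in both C0 libraries. The differences ranged from 0.22 to 2.76, with 7 regions at 1 or more. By contrast, 529 of the 624 higher regions were under 1 in both N1 libraries, with a median ratio of 0.71 in N1 and 0.41 in C0. Their median coverage was 39 steps of the pileup in N1 and 16.5 steps in C0, against 124 and 124.5 over all regions, so these gains rest on thin coverage in C0.

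The only region to move from under 1 in both C0 libraries to at least 2 in both N1 libraries lay on chromosome 29 (486115 to 487678). Its ratio was 2.99 and 2.84 in N1, against 0.40 and 0.46 in C0, a difference of 2.76 ± 0.14 (SE). Both N1 libraries stood far above both C0 libraries, and the pileup alone differed by 2.22. The next region downstream (493048 to 496620) was also among the largest gains, with ratios of 3.73 and 3.40 in N1 against 1.40 and 1.55 in C0 (difference 1.27 ± 0.10). The region on the other side (476797 to 482814) was not called, with mean ratios of 2.30 in N1 and 2.54 in C0.

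On chromosome 9 (107001 to 115486) the ratio was 5.10 and 5.36 in N1, against 1.63 and 1.70 in C0, a difference of 1.65 ± 0.09. The strongest Kcr ratio in N1 was found over 22453 bp on chromosome 26 (239273 to 261725), at 5.33 and 5.24 in N1 against 2.51 and 2.59 in C0 (1.05 ± 0.08). Neither region was among the 6 highest in C0. The next 3 gains started close to background in C0. On chromosome 15 (154657 to 156641) the ratio was 3.25 and 3.27 in N1, against 1.07 and 1.01 in C0 (1.65 ± 0.11). On chromosome 27 (150845 to 156325) it was 3.51 and 3.23 in N1, against 1.08 and 1.27 in C0 (1.52 ± 0.11). On chromosome 17 (162269 to 166306) it was 3.01 and 2.72 in N1, against 0.98 and 1.05 in C0 (1.50 ± 0.12). In each of them the N1 libraries were more than 2-fold above the C0 libraries.

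The 12 largest gains here and below are those among the 49 regions with a ratio of at least 2 in both N1 libraries. Of all 624 higher regions, 120 had a difference of at least 1. The other gains among the 12 largest were under 2-fold and lay on chromosomes 21 (775792 to 778752), 6 (1279399 to 1284565), 9 (1142542 to 1146518), 19 (635808 to 637802) and 26 (80819 to 83428). Their differences ranged from 0.68 to 0.98. On chromosome 26 (80819 to 83428) the ratio was 3.78 and 3.70 in N1, against 2.08 and 2.62 in C0, so that the C0 libraries differed among themselves. The adjusted limma p over the 12 gains was between 1.09e-14 and 5.56e-07. All 12 were called higher under every scaling and with each library left out, except the region on chromosome 26 (80819 to 83428), whose pileup alone differed by 0.13. The adjusted p of limma for this pileup difference was 0.183. Scaling to a common median raises N1 against C0, so it could not turn the sign of these gains.

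**Figure D3:**
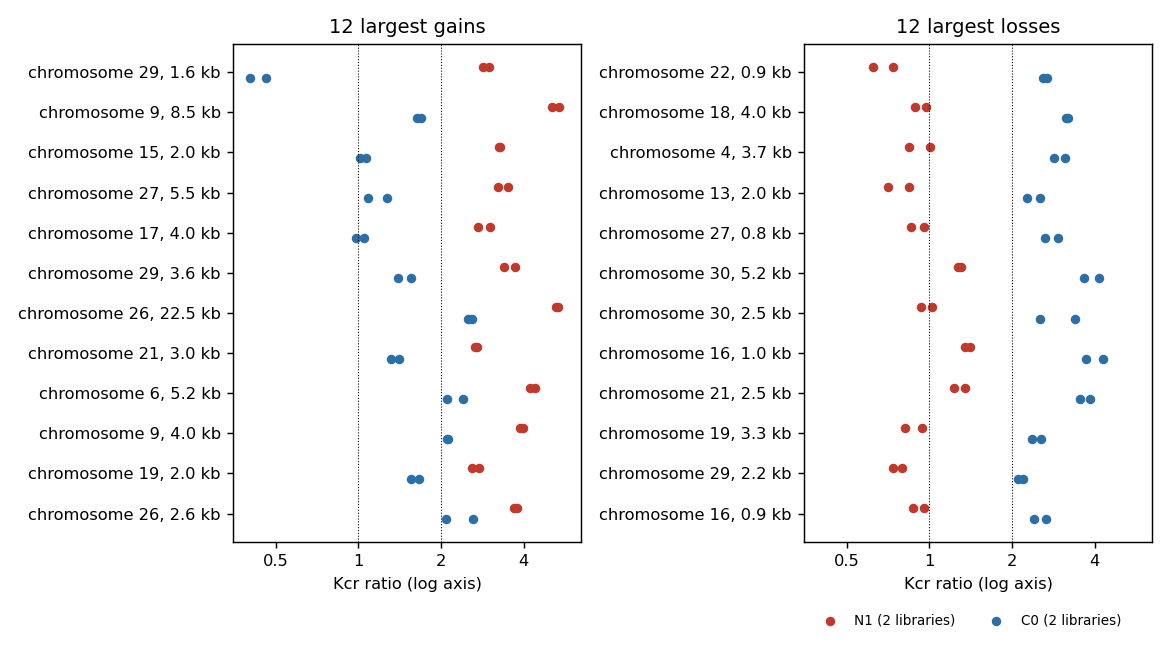
Kcr ratio in each N1 library (red) and each C0 library (blue) for the 12 largest gains with a ratio of at least 2 in N1 (left) and the 12 largest losses with a ratio of at least 2 in C0 (right). The horizontal log axis has dotted lines at ratios of 1 and 2, and rows give chromosome and width. In no row do the red and blue points overlap, since the regions were chosen without overlap, and 1 gain starts under a ratio of 1 in both C0 libraries.

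Losses of a mark that was clear in C0 were numerous. In 2166 of the 2439 lower regions the ratio was at least 2 in both C0 libraries without overlap with N1, with medians of 1.95 in N1 and 2.99 in C0, and 222 of them had a difference of -1 or lower. They lay on all 30 chromosomes. With equal medians and spreads, 356 of the 2166 were called lower and 625 higher, so most of them were not lower on that scale. All 49 gains above were called higher on it, but this scale could not turn their sign. It raises N1 against C0 and widens the N1 spread, and the gains lie above the N1 medians. The largest loss was on chromosome 22 (60498 to 61444), a region of 947 bp, with ratios of 0.62 and 0.74 in N1 against 2.60 and 2.68 in C0 (-1.96 ± 0.14). On chromosome 18 (437454 to 441475) the ratio was 0.97 and 0.89 in N1, against 3.16 and 3.19 in C0 (-1.77 ± 0.12). Both regions were under background in N1.

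On chromosome 4 (1302735 to 1306423) the ratio was 0.84 and 1.00 in N1, against 3.11 and 2.85 in C0 (-1.70 ± 0.13). On chromosome 13 (936659 to 938705) it was 0.84 and 0.71 in N1, against 2.27 and 2.53 in C0 (-1.63 ± 0.15). On chromosome 27 (97895 to 98676) it was 0.96 and 0.86 in N1, against 2.94 and 2.63 in C0 (-1.62 ± 0.13). In all 3 the loss was larger than the spread within pairs, which the choice of the largest losses without overlap nearly ensures. Chromosome 30 held 2 of the 12 losses. The region from 217870 to 223061 kept ratios of 1.27 and 1.30 in N1, against 3.67 and 4.15 in C0 (-1.60 ± 0.10). The region from 313791 to 316300 had 1.02 and 0.93 in N1, against 2.53 and 3.38 in C0 (-1.58 ± 0.13).

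The other 5 losses lay on chromosomes 16 (555766 to 556795 and 54914 to 55846), 21 (760790 to 763254), 19 (675131 to 678460) and 29 (192448 to 194645), at -1.54 to -1.47. Of the 12 losses, 8 were under 3 kb. Adjusted limma p-values lay between 7.95e-13 and 1.80e-10, and all 12 were called lower under every scaling and without any single library. The regions next to them were 17 lower, 3 higher and 4 not called, and those next to the 12 gains 9 lower, 10 higher and 5 not called, where 64.1% of all regions were lower and 16.4% higher. The gains on chromosome 29 were counted as neighbours of each other. All other higher neighbours, of gains and of losses, had mean ratios under 1 in N1 and in C0. Of all regions under a ratio of 1 in C0, 58.0% were higher.

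In 14 regions the ratio was at least 2 in both C0 libraries and under 1 in both N1 libraries. All were called lower, which this choice nearly ensures, with mean ratios of 0.68 to 0.98 in N1 and 2.06 to 3.18 in C0. They included the regions named on chromosomes 22, 18, 13, 27, 19 and 29, and their median width was 1292 bp, against 3004 bp for all regions. After 2 days none of the 14 had a ratio of 2, and 1 was under 1.

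The regions with the highest Kcr ratios in replete cells all had lower ratios in N1. Of the 46 regions with a ratio of at least 4 in both C0 libraries, 46 were called lower, and none held a ratio of 4 in both N1 libraries. Only 5 and 6 of all regions reached a ratio of 4 in the N1 libraries. The 46 were chosen on their C0 level, which is also part of the difference, so these counts are no independent result. Their mean ratios ranged from 1.62 to 3.47 in N1 and from 4.05 to 5.46 in C0. The highest in C0 was on chromosome 3 (851924 to 853431), with 2.76 and 2.94 in N1 against 5.65 and 5.28 in C0 (-0.94 ± 0.09). Next came chromosome 1 (634182 to 641379), with 3.32 and 3.62 in N1 against 5.58 and 5.20 in C0 (-0.63 ± 0.09), and chromosome 5 (886400 to 894158), with 3.03 and 3.38 in N1 against 5.08 and 4.98 in C0 (-0.65 ± 0.09). These regions stayed marked in N1. The smallest loss was on chromosome 11 (1017219 to 1020476), with 3.31 and 3.19 in N1 against 4.01 and 4.33 in C0 (-0.36 ± 0.09). With equal medians and spreads, the differences of these regions on chromosomes 3, 1, 5 and 11 became 0.082, 0.45, 0.39 and 0.63, so their direction did not hold on that scale.

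The 380 regions highest in each condition shared 143 (37.6%), out of 3803 regions. None of the 6 highest in N1 was among the 6 highest in C0. In C0 the 6 regions highest in N1 had mean ratios of 1.66 to 3.55, against a median of 2.54 over all regions. Beside the regions on chromosomes 26 (239273 to 261725), 9 (107001 to 115486) and 6 (1279399 to 1284565), they included 35986 bp on chromosome 14 (703425 to 739410), with ratios of 5.24 and 4.99 in N1 against 3.58 and 3.51 in C0 (0.53 ± 0.08). On chromosome 9 (902745 to 912209) the ratio was 3.83 and 4.45 in N1, against 2.52 and 2.80 in C0 (0.64 ± 0.09). On chromosome 2 (1547238 to 1561046) it was 4.26 and 3.93 in N1, against 3.05 and 2.77 in C0 (0.49 ± 0.09).

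Calls differed with the width of the regions. Of the 535 regions under 1 kb, 201 were higher and 197 lower, whereas of the 479 regions of 12 kb or more, 7 were higher and 420 lower. Narrow regions were more often unmarked in C0, with a median C0 ratio of 0.73 under 1 kb and 3.08 at 12 kb or more. Among regions with a C0 ratio of 2 to under 4 alone, the loss was smaller in wider regions, with median differences of -0.80 under 1 kb, -0.65 at 1 to 3 kb, -0.57 at 3 to 6 kb, -0.53 at 6 to 12 kb and -0.48 at 12 kb or more. With equal medians and spreads, the same classes gave 12 higher and 55 lower calls under 1 kb and 247 higher and 10 lower at 12 kb or more. The order by width was thus present under both scales, while the sign for wide regions was not.

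**Figure D4:**
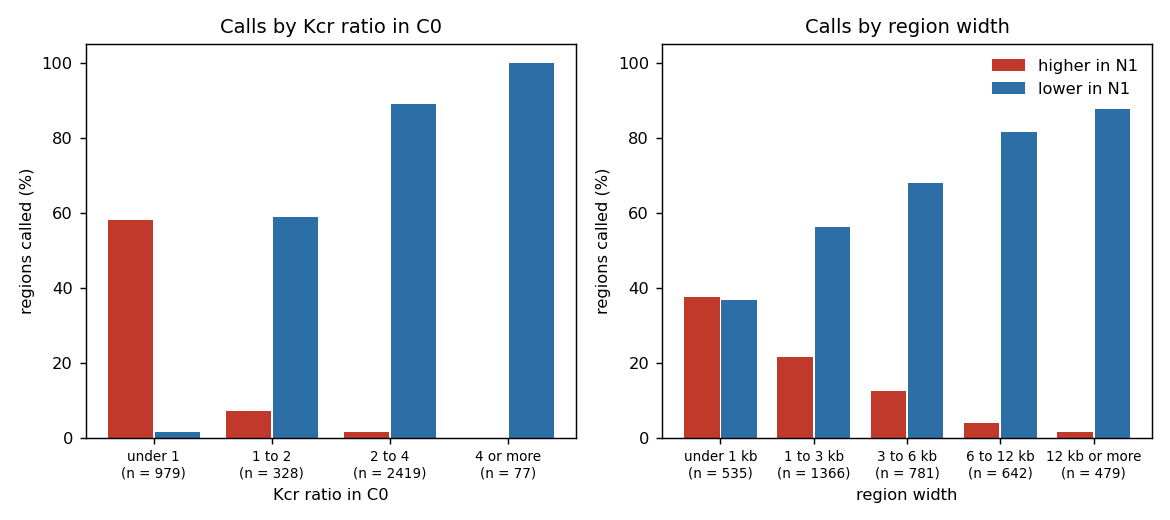
Share of regions called higher (red) or lower (blue) in N1, in percent, by their mean Kcr ratio in C0 (left) and by their width (right), with the number of regions in each class under the bars. The share of lower calls was 1.53% under a ratio of 1 and 100% at 4 or more, and 36.8% under 1 kb and 87.7% at 12 kb or more.

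The 4 largest gains among broad regions of 12 kb or more were those on chromosomes 26, 14 and 2 named above and 1 on chromosome 7 (882003 to 897960), with 3.75 and 3.92 in N1 against 2.70 and 2.96 in C0 (0.44 ± 0.09). The largest broad loss was on chromosome 14 (825002 to 839620), with 1.55 and 1.69 in N1 against 4.03 and 4.22 in C0 (-1.35 ± 0.09). It lies on the same chromosome as the broad gain of 35986 bp. On chromosome 10 (860662 to 877777) the ratio was 1.86 and 1.68 in N1, against 4.57 and 4.26 in C0 (-1.32 ± 0.09). The broad losses on chromosomes 19 (608825 to 622344) and 21 (441341 to 459952) were -1.14 ± 0.10 and -1.09 ± 0.10. These 4 losses kept their call with equal medians and spreads.

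Both parts of the ratio were looked at separately, since the background also differed between conditions. The background was lower in N1 in 3213 regions (median log2 difference -0.18) and the pileup in 3016 (median -0.58). The pileup alone was called lower in 71.4% and higher in 9.31% of all regions. Of the 2439 lower regions, 2433 were also called lower on the pileup alone. Of the 624 higher regions, 349 were also called higher on the pileup alone and 5 were called lower, and in 165 the background part was larger than the pileup part. Among the 49 gains with a clear mark, 24 were called higher and 5 lower on the pileup alone, so the direction of these 5 turns when the background is left out. In the 12 largest gains the pileup part was the larger in 10. The exceptions were chromosome 9 (1142542 to 1146518), where the pileup differed by 0.41 and the background by -0.48, and chromosome 26 (80819 to 83428), with 0.13 and -0.55. In 211 regions the background was at the lowest value of the table in all 4 libraries, and 125 of these were higher and 22 lower in N1. Of all regions, 16.4% were higher and 64.1% lower, and of those under a ratio of 1 in C0, 58.0% were higher and 1.53% lower. None of the 49 gains was among the 211.

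**Figure D5:**
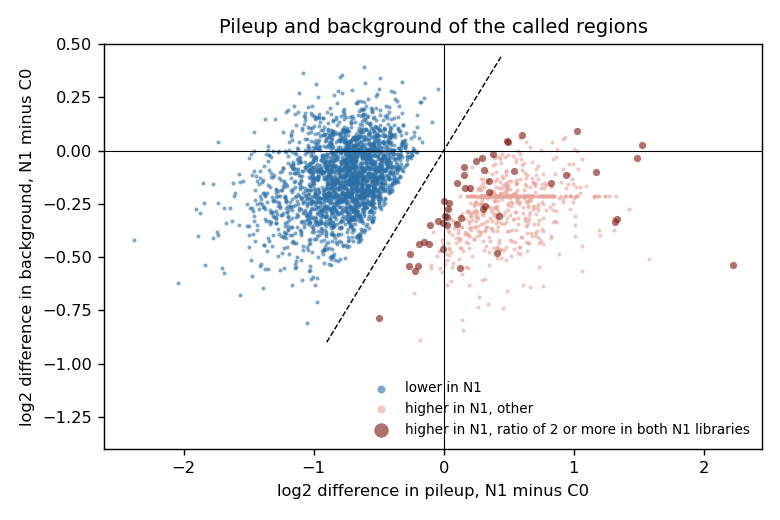
Log2 difference in background (vertical) against log2 difference in pileup (horizontal), N1 minus C0, for called regions: lower in N1 (blue), higher in N1 (pale red) and the 49 higher regions with a ratio of at least 2 in both N1 libraries (dark red). Points on the dashed line have no net difference in the ratio. The blue points lie left of 0 on the pileup axis, and the horizontal row of pale red points holds regions at the lowest background.

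Lower regions (64.1% of all) and higher regions (16.4%) are given here by their order along the chromosomes, so that longer series of lower regions are no result by themselves. The longest series of neighbouring lower regions held 19 regions on chromosome 2 (1356539 to 1506332), with median ratios of 1.87 in N1 and 2.90 in C0 and differences between -1.01 and -0.41. A series of 17 covered 265617 bp of chromosome 6 (800746 to 1066362), and 14 series held 10 or more regions. Series of higher regions had at most 3 members, in 8 places. Of 3773 neighbouring pairs, 911 held 1 higher and 1 lower region, 1459 had both lower and 73 both higher. Across these pairs the differences of neighbours correlated at r = -0.11 and their C0 levels at r = -0.12. Neighbours with a C0 ratio of at least 2 in both regions (1547 pairs) gave r = -0.04, and those under 1 in both (130 pairs) r = 0.28.

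The median difference by chromosome lay between -0.54 on chromosome 30 and -0.25 on chromosome 26, and it was negative on all 30. Chromosome 26 had 29 higher and 55 lower regions of 106, and chromosome 30 had 15 and 48 of 76. Regions within 50 kb of the outermost region of a chromosome had 95 higher and 273 lower calls of 489 and a median ratio of 1.44 in N1 and 2.20 in C0. The other 3314 had 529 higher and 2166 lower and medians of 1.72 in N1 and 2.58 in C0. The median difference was -0.35 near the ends and -0.44 elsewhere. Regions with a neighbour within 500 bp had a median difference of -0.43, and the others -0.42.

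H3K27ac, acetylation of histone H3 at lysine 27 and a mark of active promoters and enhancers, has libraries of its own in both conditions. Its background in each condition was nearly that of Kcr (r = 0.99 across regions in N1 and in C0), so both marks carry the same background term. Of all regions, 544 were called higher for H3K27ac in N1 (14.3%) and 1414 lower (37.2%). Of the 49 Kcr gains, 41 (83.7%) were higher for H3K27ac and none was lower, and the median H3K27ac ratio was 4.90 in N1 and 3.01 in C0. Of the 2166 Kcr losses, 1200 (55.4%) were lower and 142 (6.56%) higher for H3K27ac. Of the 529 Kcr gains under a ratio of 1, 98 (18.5%) were higher, against 14.3% of all regions. Across all regions the differences of both marks correlated at r = 0.58, and those of the pileup alone at 0.53.

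All 12 of the largest Kcr losses were lower for H3K27ac, and 11 of the 12 largest gains were higher. On chromosome 13 (936659 to 938705) the H3K27ac ratio was 0.47 and 0.56 in N1, against 4.97 and 5.02 in C0, which was the largest H3K27ac loss of any Kcr loss. On chromosome 22 (60498 to 61444), the largest Kcr loss, H3K27ac was 1.02 and 0.78 in N1, against 1.27 and 1.27 in C0. H3K27ac was thus close to background there in both conditions, though called lower in N1 (-0.51 ± 0.17). Kcr was well above background in C0 alone.

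A test of the difference between the changes of both marks (limma interaction, Kcr minus H3K27ac) was called above 0 in 321 regions (8.44%) and below 0 in 1427 (37.5%), with a median of -0.22. The split turned with the scale, to 863 and 195 with equal medians and spreads. Of the 49 Kcr gains, 26 had a smaller gain in Kcr than in H3K27ac and 7 a larger one. Of the 2166 losses, 1122 had a more negative change in Kcr and 70 a less negative one. Both sets were chosen on their Kcr change, which is itself part of the interaction, so these splits are no independent comparison of the marks. The smallest value was on chromosome 17 (162269 to 166306), where H3K27ac was 7.00 and 6.58 in N1, against 0.62 and 0.55 in C0, beside the smaller Kcr gain given above (-2.04 ± 0.16). Kcr gained more than H3K27ac on chromosome 9 (107001 to 115486), where H3K27ac was 9.29 and 9.69 in N1, against 4.57 and 4.66 in C0 (0.61 ± 0.10). On chromosome 26 (239273 to 261725) H3K27ac was 7.65 and 7.74 in N1, against 6.05 and 5.90 in C0 (0.69 ± 0.10). Kcr was lower and H3K27ac higher, with the interaction called, in 168 regions, which had a median Kcr ratio of 1.96 in N1 and 2.64 in C0, and the reverse held in 13.

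H3K36me2, dimethylation of histone H3 at lysine 36, was higher in 275 regions (7.23%) and lower in 575 (15.1%). Its 2 C0 libraries hold identical values and entered the fit once. Of the 49 Kcr gains, 12 were higher and 2 lower for H3K36me2, and of the 2166 losses 99 were higher and 307 lower. Across regions the differences of Kcr and H3K36me2 correlated at r = 0.04. The 951 regions with the lowest H3K36me2 ratio in C0 had 48 higher and 736 lower Kcr calls, and the 950 with the highest had 293 and 445. These groups also differed in Kcr, with median C0 ratios of 2.44 and 0.97. Among their members with a Kcr ratio of 2 to under 4 in C0 (654 and 414 regions), the median Kcr difference was -0.64 and -0.60.

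The values after 2 days are given as a description, since the regions were chosen on N1 and C0 and the 2 Kcr libraries of N2 hold identical values. The 12 largest gains had N2 ratios of 1.74 to 3.12, and 11 of these lay between the N1 and C0 means. The exception was chromosome 26 (80819 to 83428), at 2.14 in N2, which was under its C0 mean of 2.34. The 12 largest losses had N2 ratios of 0.90 to 2.14, all between the N1 and C0 means. On chromosome 29 (192448 to 194645), with 0.74 and 0.79 in N1 and 2.19 and 2.10 in C0, the ratio was 1.99 in N2. On chromosome 13 (936659 to 938705) it was 0.90 in N2. The whole sets were less uniform. All 49 gains were lower in N2 than in N1, 22 of them lay between the N1 and C0 means and the others were not above their C0 mean. Of the 2166 losses, 1217 lay between, 939 were lower in N2 than in N1 and 10 were above their C0 mean. The N2 ratio was at least 2 in 38 of the 49 gains (median 2.23) and in 1099 of the 2166 losses (median 2.00), against 1312 of all 3803 regions (34.5%).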

How the data were processed

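Kcr, H3K27ac and H3K36me2 were measured by ChIP-seq, and the labels gave the condition of each library. The study's methods and the processing notes name Trim Galore for trimming, BWA for alignment, Picard for duplicates, deepTools, and MACS2 for broad peaks with input as control. Reads were aligned to the N. oceanica reference genome. Not given for ChIP-seq in the sources used here: the version of that genome and of the tools, how peaks were merged and how a region's pileup was taken. The authors deposited, per library and region, a coverage signal (pileup) and the local background signal (lambda). Pileups came out as whole multiples of a step specific to each library (tolerance 0.05), and the depth quoted is the inverse of that step. The values are no counts of reads per region, so no count test was run. Log2 fold changes, p-values and a status that the authors deposited for their own comparison were not used. A further 36 columns of 12 libraries outside the labels used here were not used.

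Enrichment was log2(pileup + 0.5) minus log2(background + 0.5), which understates changes of low values. limma 3.58.1 in R 4.3.3 (limma-trend, residual df 2, prior df 27.4) was fitted to the distinct Kcr libraries of C0, N1 and N2 over 3803 regions, with Benjamini-Hochberg adjustment. The median SE was 0.106. The fit was tested on simulated data. The named regions are the 12 largest called gains and losses without overlap and with a ratio of at least 2 in both libraries of the higher condition, all or the 6 largest crossings between under 1 and at least 2, the 6 highest in each condition, the 4 largest called gains and losses of 12 kb or more, the 6 least changed at 4 or more in C0, and the 4 largest and 4 smallest called differences between the Kcr and H3K27ac changes. Members, classes and rules were chosen with earlier results of these data known. Alternatives left out the background, changed scaling, pseudocount (0.1 or 2), filter, fit or threshold, added a replicate block, or left out a library.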

Additional observations from a re-analysis of the deposited data

Results flagged for a closer look

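The changes of Kcr and H3K27ac from C0 to N1 differed from each other by limma's interaction test in 1427 regions below 0 and 321 above 0, and the 4 most extreme on each side are given as Kcr minus H3K27ac. The 1427 regions below 0 had a median Kcr difference of -0.59 and a median H3K27ac difference of -0.013. The 4 lowest, in each of which H3K27ac was higher in N1, were -2.04 on chromosome 17 (162269 to 166306), -1.76 on chromosome 12 (113172 to 119603), -1.70 on chromosome 16 (52188 to 53009) and -1.65 on chromosome 19 (635808 to 637802). On chromosome 12 Kcr was 1.91 and 1.76 in N1, against 1.40 and 1.13 in C0, while H3K27ac was 3.87 and 3.84 in N1, against 0.82 and 0.74 in C0. On chromosome 16 (52188 to 53009) Kcr was not called, with 1.00 and 0.98 in N1 against 1.32 and 1.05 in C0.

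Above 0, the values were 1.89 on chromosome 8 (1230460 to 1231326), 1.80 on chromosome 16 (806568 to 807085), 1.79 on chromosome 25 (301530 to 305754) and 1.77 on chromosome 17 (291686 to 292963). In all 4 both marks were under a ratio of 1 in every N1 and C0 library. On chromosome 8 Kcr was 0.68 and 0.59 in N1, against 0.19 and 0.20 in C0, and H3K27ac was 0.16 and 0.31 in N1, against 0.23 and 0.30 in C0.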

How the results depend on the processing

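The balance of the Kcr calls depended on the scale. The fit as reported gave 624 higher and 2439 lower regions. Centring on the median difference gave 1214 and 1059, equal library medians 1625 and 533, and equal medians and spreads 1251 and 487 (1738 calls). The pileup alone gave 354 higher regions and a median difference of -0.58. Among the 2852 regions at or above the lower quartile of mean pileup 67 were higher (median -0.56), and with a ratio of at least 1 in both libraries of N1 or of C0 70 were higher (median -0.56). Both filters removed mainly regions under a ratio of 1. A difference of at least 1 left 370 calls, 120 higher and 250 lower. Pseudocounts, the fit to C0 and N1 alone and a constant prior variance kept the counts within 1.5 times. The replicate numbers did not pair the libraries (r = -0.004 between the replicate differences of N1 and C0), and with the replicate block 624 regions were higher and 2441 lower. Without 1 library, calls numbered 2729 to 2931, with 432 to 600 higher and 2292 to 2331 lower. For Kcr minus H3K27ac, with 321 regions above 0 and 1427 below, centring gave 792 and 494, equal medians and spreads 863 and 195 (1058 calls), the pileup alone 69 and 2720 (2789 calls, median -0.67), and the replicate block 307 and 1414. Without 1 library there were 205 to 321 above 0 and 1158 to 1390 below, and the 205 came from leaving out H3K27ac C0 replicate 1.

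Of 42 named Kcr regions, 31 kept their call in every alternative, as did the 8 named for the difference between marks. Of all 77 regions with a mean ratio of 4 or more in C0, 20 were called above 0 and 17 below 0 once medians and spreads were set equal. Those named here as highest in C0, or as least changed at that level, all changed direction. Choosing the least changed regions favours such a turn. With equal medians and spreads the differences became 0.082 on chromosome 3 (851924 to 853431), 0.12 on chromosome 3 (1165477 to 1172696), 0.46 on chromosome 3 (179836 to 181144), 0.53 on chromosome 3 (1230456 to 1238593), 0.45 on chromosome 1 (634182 to 641379), 0.39 on chromosome 5 (886400 to 894158), 0.40 on chromosome 4 (86950 to 106573), 0.40 on chromosome 9 (239290 to 242967), 0.37 on chromosome 23 (488025 to 490533) and 0.63 on chromosome 11 (1017219 to 1020476). With equal library medians they became 0.030 on chromosome 3 (179836 to 181144), 0.12 on chromosome 3 (1230456 to 1238593), 0.040 on chromosome 9 (239290 to 242967) and 0.23 on chromosome 11 (1017219 to 1020476), which after centring had 0.069. Setting the library medians equal takes their difference (-0.59, N1 minus C0) out of every region. Losses smaller than that thus turn positive by construction. The cause of the lower median and narrower spread in N1 was not tested. Regions under a ratio of 1 in C0 had a median of 41 steps of the pileup in N1 and 20.5 in C0, against 124 and 124.5 over all regions, and the part of depth was not tested.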
